A study of Mus musculus with 24 samples.

Results

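The genes described here encode the protein parts of the cell's ribosomes: the ribosomes of the cytosol, and those that mitochondria keep for translating the few messages of their own genome. They were taken by symbol from the whole table of transcript counts: every gene named Rps or Rpl with a number and at most 1 of the letters a, l, x or y, the stalk genes Rplp0, Rplp1 and Rplp2, the gene Rpsa, and every gene named Mrps or Mrpl with a number. The rule used no measured value, except that a gene with several transcripts was represented by the transcript with the highest mean. It gave 160 genes of 25160, of which 82 are cytosolic (50 of the large and 32 of the small subunit, by name) and 78 are mitochondrial (49 of the large and 29 of the small subunit, by name). A name is not always the place of the protein: in the mammalian mitochondrial ribosome the products of Mrps18a and Mrps30 sit in the large subunit.

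A cytosolic ribosome is built in the nucleolus from ribosomal RNA and roughly equal amounts of each ribosomal protein, and the messages of these proteins are among the most abundant in a growing cell. Most of those messages begin with a run of pyrimidines, the 5′ terminal oligopyrimidine (TOP) tract, through which their translation follows the activity of the mTOR kinase. Mitochondrial ribosomal proteins are encoded in the nucleus, made in the cytosol and imported, and the mitochondrial ribosome makes only core subunits of the respiratory chain and ATP synthase. Macrophages activated by lipopolysaccharide (LPS, which is sensed through Toll-like receptor 4) are known to raise glycolysis and to remodel mitochondrial respiration.

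Transcripts were measured by RNA sequencing in RAW 264.7 cells, a mouse macrophage line, in a pair of stable derivatives with a doxycycline-inducible construct for Nur77 (the nuclear receptor encoded by Nr4a1) or for GFP. Every group received 50 ng/ml doxycycline for 18 h before 500 ng/ml LPS was given for 0, 1 or 5 h. The 6 groups were therefore the Nur77 line and the GFP line at 0, 1 and 5 h, with 4 libraries each, 24 in all, and each construct was represented by 1 stable line. Whether the 4 libraries of a group were grown as separate cultures is not in the labels. The p-values therefore reflect library-to-library spread that could be technical.

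Total counts over all genes were 8134143 to 29275847 per library, and 12198 genes passed the filter on low counts and were tested. All 12 macrophage markers were detected, with sums of 5838 to 7684 CPM in the Nur77 line and 9258 to 10751 CPM in the GFP line. The 4 epithelial markers were at 0 in every library, and the sums of the 6 fibroblast, 6 lymphocyte and 4 neutrophil markers reached at most 0.722, 0.379 and 4.58 CPM, with 2 of the 6 fibroblast and 4 of the 6 lymphocyte markers at 0 throughout. Nr4a1 lay at 2.74 to 3.71 CPM in the Nur77 line and 2.46 to 3.34 CPM in the GFP line at 0 h, which overlapped. At 1 h it lay at 9.29 to 42.4 CPM in the Nur77 line, below the 52.0 to 66.8 CPM of the GFP line, and at 5 h at 4.51 to 5.199 CPM in the Nur77 line, above the 2.08 to 3.13 CPM of the GFP line. Its counts were thus higher in the Nur77 line at 5 h and not at 0 or 1 h, and the sources used here do not give whether reads of the construct were counted. Nur77 line and GFP line denote the libraries so labelled. The Nur77 line at 1 h was the least uniform group, with a lowest correlation between its libraries of 0.976 against 0.988 or more in the other groups. Its replicate 2 stood apart on the first principal component, at 11.7 against -11.4 to -10.2 for the other 3.

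Of the 82 cytosolic genes, 79 were tested, as were all 78 mitochondrial genes. The 3 left out were Rpl10l and Rps4l, with no count in any library, and Rpl39l, with 11.5 counts in all 24 libraries together. These are named as paralogues of the ubiquitous genes Rpl10, Rps4x and Rpl39. Cytosolic genes had a median level of 482 CPM (counts scaled to a common library total, with factors from a trimmed mean of log ratios, TMM) and mitochondrial genes a median of 37.9 CPM, over all libraries. Per kilobase of transcript the medians were 607 CPM for 77 cytosolic genes and 26.9 CPM for 77 mitochondrial genes. The cytosolic range was wide at its low end: Rpl21 averaged 0.865 CPM, Rpl29 1.87, Rpl32l 3.55, Rpl35a 23.5 and Rps2 44.8 CPM, although the proteins of all but Rpl32l are standard parts of the ribosome. Cytosolic ribosomal protein genes are known for processed pseudogenes, and 60 of the 82 had at least 1 annotated copy whose symbol is the gene's own followed by -ps, up to 24 for Rpl31, 15 for Rpl21 and 11 for Rps2. Among the mitochondrial genes 3 of 78 had such a copy, Mrpl23, Mrpl48 and Mrps36. How the authors' counting divided reads between a gene and its near-identical copies is not given in the sources used here, so cytosolic levels are uncertain where copies exist.

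Together the cytosolic genes took 4.56% ± 0.0845 of the counts in the Nur77 line at 0 h, 4.16% ± 0.390 at 1 h and 4.11% ± 0.108 at 5 h (SD, n = 4 each). They took, in the GFP line, 4.51% ± 0.100, 4.28% ± 0.242 and 4.01% ± 0.121 at the same times. The mitochondrial genes took 0.365% ± 0.00751, 0.320% ± 0.0186 and 0.308% ± 0.00814 in the Nur77 line and 0.364% ± 0.00914, 0.327% ± 0.0161 and 0.305% ± 0.00547 in the GFP line. The shares of both sets were lower in every library at 5 h than in any library at 0 h, in both lines. These are shares of all counts. A smaller share of these genes and a larger share of others cannot be told apart in them, nor can fewer cells of a kind and less RNA per cell in a bulk sample.

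**Figure D1:**
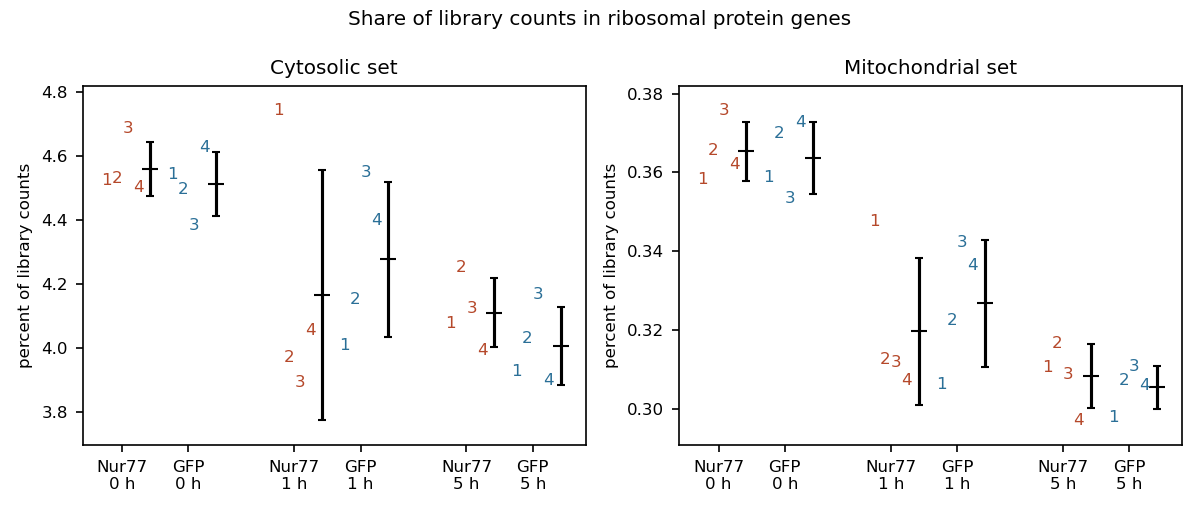
Percent of all library counts in cytosolic (left) and mitochondrial (right) ribosomal protein genes, by line and hours of LPS. Each digit is 1 library, written as its replicate number, and the dash with bars gives the mean and SD of 4. At 5 h the shares lie below those at 0 h in both lines, and in the Nur77 line at 1 h replicate 1 lies above the other 3 libraries.

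The sequence at the annotated start was compared between the sets. Promoter windows of 250 bases before to 50 bases after the start were read from RefSeq annotation of GRCm38.p6, which held 148 windows of 130 of the 160 genes. A TOP-like start, here C at the annotated first base followed by 4 or more C or T, was present in 14 of 73 cytosolic windows (19.2%), in 0 of 75 mitochondrial windows and in 2.51% of all 32851 windows (2.35% of those of tested genes). With the run allowed to begin up to 10 bases to either side of the annotated base, it was in 41 cytosolic windows (56.2%), 31 mitochondrial windows (41.3%) and 30.7% of all windows (32.3% of those of tested genes). Of the 14 cytosolic windows, 4 are shown because the tract is the feature for which these messages are known, with 30 bases before the start and 20 from it, the pyrimidine run from the first base in capitals, and the coordinates are of GRCm38. Rps6 encodes the small subunit protein phosphorylated by S6 kinases (chr4:86857348-86857397, minus strand), Rpl28 (chr7:4792935-4792984, plus strand) and Rpl35 (chr2:39005112-39005161, minus strand) large subunit proteins, and Rps27 a small subunit protein (chr3:90213629-90213678, minus strand).
Rps6: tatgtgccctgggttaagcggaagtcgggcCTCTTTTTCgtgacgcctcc
Rpl28: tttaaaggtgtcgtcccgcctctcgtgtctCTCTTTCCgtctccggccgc
Rpl35: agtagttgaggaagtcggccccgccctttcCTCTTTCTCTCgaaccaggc
Rps27: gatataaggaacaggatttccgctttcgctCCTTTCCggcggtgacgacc
The run was 9 bases long in Rps6, 8 in Rpl28, 11 in Rpl35 and 7 in Rps27. The starts of Rps7 (chr12:28635934-28635983, minus strand), of the mitochondrial gene with the highest rise after LPS, Mrpl52 (chr14:54426879-54426928, plus strand), and of the mitochondrial genes Mrpl18 (chr17:12916072-12916121, minus strand) and Mrpl41 (chr2:24975079-24975128, minus strand), which fell, have no such run at the annotated base and are given for comparison, so without capitals.
Rps7: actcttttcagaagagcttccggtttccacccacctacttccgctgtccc
Mrpl52: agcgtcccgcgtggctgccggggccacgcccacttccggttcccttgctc
Mrpl18: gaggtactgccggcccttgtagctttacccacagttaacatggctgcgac
Mrpl41: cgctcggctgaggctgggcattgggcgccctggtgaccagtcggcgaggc

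The word GCGCATGC or its reverse complement GCATGCGC, the core of the site of nuclear respiratory factor 1 (NRF1, a known regulator of nuclear genes for mitochondrial proteins), was in 8 of 75 mitochondrial windows (10.7%), 3 of 73 cytosolic windows (4.11%) and 2.71% of all windows. Of the 12286 windows of tested genes, 5.22% held it. The 8 mitochondrial genes were Mrpl9, Mrpl10, Mrpl17, Mrpl22, Mrpl32, Mrpl33, Mrpl39 and Mrps18b, and 4 of them, all called higher at 5 h of LPS in both lines, are shown with the word in capitals: Mrpl17 (chr7:105811075-105811114, minus strand), Mrpl32 (chr13:14613101-14613140, minus strand), Mrpl39 (chr16:84735346-84735385, minus strand) and Mrps18b (chr17:35916640-35916679, minus strand).
Mrpl17: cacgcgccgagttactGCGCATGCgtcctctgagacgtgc
Mrpl32: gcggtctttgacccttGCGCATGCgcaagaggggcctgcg
Mrpl39: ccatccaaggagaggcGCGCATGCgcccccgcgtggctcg
Mrps18b: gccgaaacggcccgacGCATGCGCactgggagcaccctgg
The capitals mark a match in each gene and not every match. In the stretches of Mrpl32 and Mrpl39 the reverse complement overlaps the marked match. Mrpl32 also held the word at -66 and -22 bases from the annotated start, and Mrps18b at 28 bases. The 4 shown were chosen by their calls, and the other 4 carriers were not called higher in both lines. Called higher in both lines were 16 of the 78 mitochondrial genes and 3167 of the 12198 tested genes. Whether the word is linked to the rise was not tested. Mrpl9 had log2 fold changes of 0.16 in the Nur77 line and 0.01 in the GFP line at 5 h, Mrpl10 had -0.08 and -0.13, Mrpl22 had -0.05 and -0.01, and Mrpl33 had -0.19 and -0.12. Of these, Mrpl9 was called higher in the Nur77 line (adjusted p = 0.0136), Mrpl33 lower in the Nur77 line (adjusted p = 0.0148) and Mrpl10 lower in the GFP line (adjusted p = 0.0408). The ETS word CCGGAAG was in 35.6% of cytosolic and 34.7% of mitochondrial windows against 8.86% of all windows and 18.1% of those of tested genes, on either strand. The YY1 word AAGATGG was in 15.1% and 17.3% against 6.34% and 7.22%. The E-box CACGTG was in 11.0% and 9.33% against 7.15% and 10.1%, the AP-1 word TGANTCA in 2.74% and 4.00% against 7.81% and 5.14%, and the NF-kB word (GGGA, any 4 bases, then CC) in 23.3% and 18.7% against 20.7% and 26.1%. The word AAAGGTCA, which Nur77 is known to bind as a monomer, was in 3 cytosolic windows (4.11%), all of Rpl35a, and in 0 mitochondrial windows. It was in 1.51% of all windows and 1.02% of those of tested genes. A match of letters is not a site in use.

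At 5 h of LPS most cytosolic genes had small positive changes, while the mitochondrial genes, like all tested genes, were called in both directions. In the Nur77 line 28 of 79 cytosolic genes were called higher and 0 lower at an adjusted p under 0.05, with 66.7% of all tested genes called (32.5% higher, 34.2% lower). In the GFP line 9 were called higher and 1 lower, with 62.6% of all genes called (30.6% higher, 32.0% lower). The cytosolic median log2 fold change was 0.14 in the Nur77 line, with quartiles of 0.08 and 0.19, and 0.08 in the GFP line, with quartiles of 0.01 and 0.14, against medians of -0.03 and -0.02 over all genes. By subunit, 15 of 48 large and 13 of 31 small subunit genes were called higher in the Nur77 line, and 5 and 4 in the GFP line. The values are positive under TMM scaling while the summed share of counts was lower at 5 h, so the median and the share differ in sign. The shares are not adjusted by the TMM factors, which were 1.07 to 1.14 in the libraries at 0 h and 0.896 to 0.922 at 5 h. The intervals were narrow: in 69 and 71 of 79 genes the 95% interval lay within 0.5 log2 units of 0, in the Nur77 and the GFP line. The sign of these small changes depends on the scaling of the libraries. Under upper quartile scaling the median of all genes moved by -0.15 in both lines, the Nur77 line had 4 cytosolic genes called higher and 1 lower, and the GFP line 0 higher and 13 lower. Relative to the median of all genes the cytosolic median was 0.16 higher in the Nur77 line and 0.10 higher in the GFP line under either scaling. The count of 10 called in the GFP line was 5 without its replicate 2 at 0 h, 6 without its replicate 3 at 0 h and 6 without its replicate 3 at 5 h.

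Rps6 was at 1124, 1057, 1082 and 1011 CPM at 5 h in the Nur77 line, against 882, 839, 858 and 825 CPM at 0 h. The groups did not overlap and the log2 fold change was 0.33 ± 0.07 (SE, adjusted p = 2.31e-04). Rps6 in the GFP line was at 996, 973, 1035 and 903 CPM at 5 h against 868, 835, 794 and 1018 CPM at 0 h, which overlapped, with a log2 fold change of 0.15 ± 0.07 that was not called (adjusted p = 0.0623). Both lines called 6 cytosolic genes higher, which is 21.4% of the 28 of the Nur77 line and 66.7% of the 9 of the GFP line: Rpl4, Rpl5, Rpl7, Rpl24, Rps13 and Rps25. Over all genes 79.9% and 84.7% of the genes called higher were shared in this way. Rpl5, which with 5S ribosomal RNA and Rpl11 binds the p53 regulator Mdm2, was at 1502, 1430.4, 1372 and 1435 CPM at 5 h in the Nur77 line against 1206, 1122, 1163 and 1182 CPM at 0 h. Its groups were apart there (log2 fold change 0.30 ± 0.06, adjusted p = 1.46e-04) and overlapped in the GFP line (log2 fold change 0.21 ± 0.06, adjusted p = 0.00431). Its partner Rpl11 had log2 fold changes of 0.07 ± 0.05 and -0.03 ± 0.05, neither of them called. Rps13, a small subunit protein, was at 364, 399, 406 and 378 CPM at 5 h in the GFP line against 356, 324, 335 and 308 CPM at 0 h, apart in all libraries (log2 fold change 0.23 ± 0.09, adjusted p = 0.0272). The calls of Rpl5 and Rps13 in the GFP line ended under upper quartile scaling, where their log2 fold changes were 0.06 and 0.07, while Rps6 and Rpl5 in the Nur77 line stayed called, at 0.18 (adjusted p = 0.0226) and 0.15 (adjusted p = 0.0259). The call of Rps13 in the GFP line also ended without replicate 2 or 4 at 0 h and without replicate 2 or 3 at 5 h, at adjusted p up to 0.0788.

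Other cytosolic genes with known special roles did little at 5 h. Rpl13a, a large subunit protein also known for a silencing complex in interferon-treated human monocytes, had log2 fold changes of 0.05 ± 0.06 in the Nur77 line and -0.01 ± 0.06 in the GFP line. Rps3, a small subunit protein also known as a partner of NF-kB, had 0.10 ± 0.05 and 0.06 ± 0.05, and Rplp0, the base of the ribosomal stalk, 0.01 ± 0.08 and 0.06 ± 0.08. None of these 6 changes was called. Rpsa, a small subunit protein also known as a laminin receptor, was called in the Nur77 line at 0.20 ± 0.07 and not in the GFP line at 0.11 ± 0.07. Rps4x was not called in the Nur77 line, at 0.14 ± 0.07, and was called in the GFP line, at 0.20 ± 0.07; upper quartile scaling ended both of these calls, and that of Rps4x also ended without replicate 4 of the GFP line at 0 h.

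Of the mitochondrial set at 5 h, the Nur77 line had 26 genes called higher and 24 lower, and the GFP line 16 higher and 26 lower. That is 50 and 42 of 78 genes, beside 66.7% (32.5% higher, 34.2% lower) and 62.6% (30.6% higher, 32.0% lower) of all genes. The median log2 fold change was 0.05 in the Nur77 line and -0.01 in the GFP line, with quartiles of -0.25 and 0.23 and of -0.28 and 0.14. Under upper quartile scaling the calls were 12 higher and 31 lower in the Nur77 line and 9 higher and 39 lower in the GFP line. All 16 genes called higher in the GFP line were also called higher in the Nur77 line, where they are 61.5% of the list. Of the lower lists 22 genes were shared, 91.7% of the Nur77 list and 84.6% of the GFP list, and 0 genes were called in opposite directions. Over all genes 79.9% and 84.7% of the higher lists and 79.1% and 84.6% of the lower lists were shared. Of all 12198 tested genes 58 were called in opposite directions, so 0 of 78 is near that share.

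**Figure D2:**
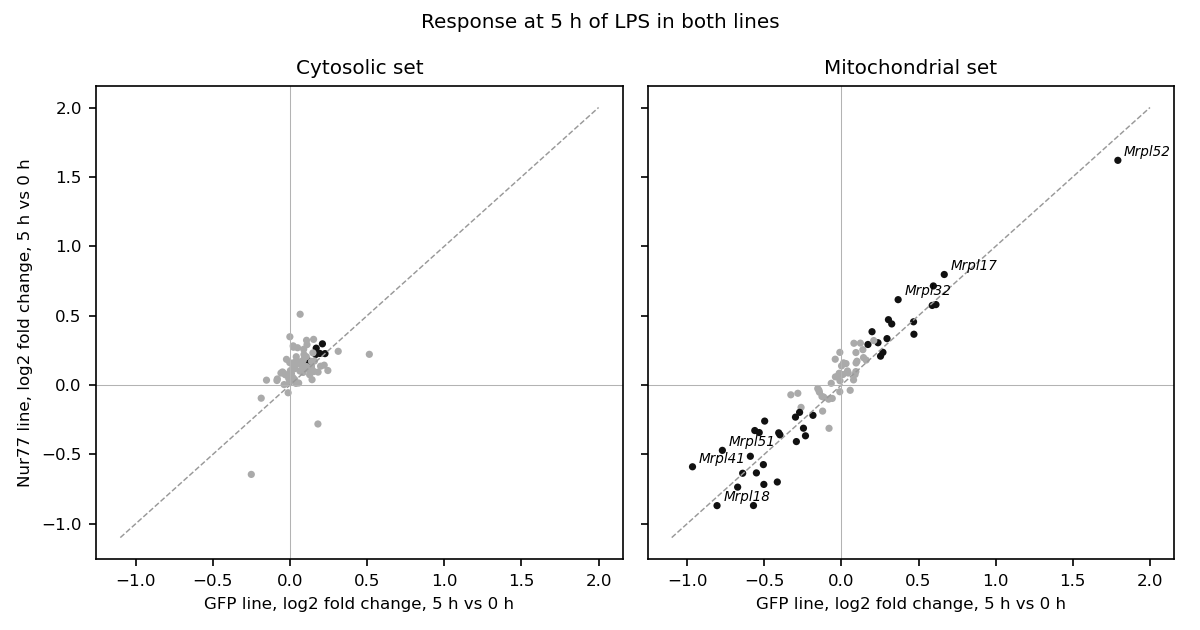
Log2 fold change at 5 h against 0 h of LPS in the Nur77 line (vertical) and in the GFP line (horizontal), 1 point per tested gene. Black points were called in the same direction in both lines, grey points were not, and the dashed line marks equal values. Mrpl52 lies at 1.62 and 1.79, and 22 mitochondrial genes called lower in both lines lie at the lower left.

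Mrpl52, a large subunit protein, had the highest rise of all 157 genes tested. It was at 92.8, 96.1, 95.8 and 92.8 CPM at 5 h in the Nur77 line, against 29.3, 33.8, 31.3 and 28.4 CPM at 0 h. In the GFP line it was at 91.3, 102, 99.3 and 92.1 CPM at 5 h, against 28.0, 29.1, 28.9 and 25.1 CPM at 0 h. Every library at 5 h was far above every library at 0 h, with log2 fold changes of 1.62 ± 0.09 (adjusted p = 1.57e-14) and 1.79 ± 0.09 (adjusted p = 1.63e-15). It was the gene named for the highest rise at 1 h too, with 0.73 ± 0.09 in the Nur77 line (adjusted p = 2.09e-07) and 0.55 ± 0.09 in the GFP line (adjusted p = 3.48e-05). The gene lies on chromosome 14, 54426909 to 54429750 in GRCm38, and Mmp14, a matrix metalloproteinase, lies 1855 bases away on the same strand. Mmp14 was at 1.61 ± 0.23 CPM at 5 h in the Nur77 line and 3.38 ± 0.433 CPM in the GFP line, and at 0.085 ± 0.122 and 0.0805 ± 0.120 CPM at 0 h (SD, n = 4).

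The other genes that rose in both lines by a log2 fold change of 0.5 or more were chosen after their values were seen. Mrpl17 was at 177, 179.9, 182 and 178 CPM at 5 h in the Nur77 line against 104, 98.3, 109 and 102 CPM at 0 h. In the GFP line it was at 143, 151, 153 and 154 CPM at 5 h against 92.2, 97.4, 93.5 and 95.01 CPM at 0 h, with no overlap in either line and log2 fold changes of 0.80 ± 0.07 and 0.67 ± 0.07. Mrpl39 had 0.71 ± 0.07 in the Nur77 line and 0.60 ± 0.07 in the GFP line, and Mrpl27 had 0.58 ± 0.11 and 0.61 ± 0.10. These are large subunit proteins. Mrps18b, one of a trio of homologues that in mammals differ in their place on the ribosome, was at 32.1, 32.1, 35.6 and 28.5 CPM at 5 h in the Nur77 line against 22.9, 23.0, 21.6 and 18.9 CPM at 0 h. It rose by 0.57 ± 0.09 on the log2 scale there (adjusted p = 3.80e-06) and by 0.59 ± 0.09 in the GFP line (adjusted p = 2.39e-06). Its homologue Mrps18a was called in the Nur77 line at 0.30 ± 0.07, a call that ended under upper quartile scaling, and had 0.08 ± 0.07 in the GFP line, while Mrps18c had 0.10 ± 0.09 and 0.04 ± 0.09, neither of them called.

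Among the genes that fell, Mrpl18 had the lowest value in the Nur77 line and Mrpl41 in the GFP line; both encode large subunit proteins. Mrpl18 was at 39.3, 38.5, 39.9 and 37.0 CPM at 5 h in the Nur77 line against 68.3, 70.7, 70.7 and 73.1 CPM at 0 h. In the GFP line it was at 36.6, 35.0, 37.0 and 31.2 CPM at 5 h against 57.8, 62.3, 58.2 and 66.4 CPM at 0 h. No library overlapped, and the log2 fold change was -0.87 ± 0.08 in the Nur77 line (adjusted p = 8.79e-10) and -0.81 ± 0.08 in the GFP line (adjusted p = 3.41e-09). Mrpl18 shares 141 bases of exon, 10.1% of its own, with the chaperonin gene Tcp1 on the opposite strand, which rose at log2 fold changes of 0.44 and 0.42. Mrpl41, also known for a role beside p53 in cell death, was at 17.5, 14.3, 15.4 and 15.1 CPM at 5 h in the Nur77 line against 21.2, 22.3, 25.3 and 25.2 CPM at 0 h. Its level in the GFP line was 13.5, 14.8, 15.3 and 13.5 CPM at 5 h against 29.4, 27.1, 25.2 and 30.3 CPM at 0 h. The log2 fold changes were -0.59 ± 0.11 in the Nur77 line (adjusted p = 2.53e-05) and -0.97 ± 0.10 in the GFP line (adjusted p = 9.82e-09), with no overlap in either line.

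Further genes lower in both lines, chosen after their values were seen, were Mrps24 at -0.87 ± 0.12 in the Nur77 line and -0.57 ± 0.12 in the GFP line, and Mrps35 at -0.74 ± 0.08 and -0.67 ± 0.07, both small subunit proteins. Mrps24 shares 226 bases of exon, 15.4% of its own, with Urgcp on the same strand. Urgcp had -0.45 in the Nur77 line and -0.08 in the GFP line at 5 h. The large subunit genes Mrpl34, Mrpl42 and Mrpl51 had -0.64 ± 0.09, -0.63 ± 0.09 and -0.47 ± 0.08 in the Nur77 line, and -0.64 ± 0.08, -0.55 ± 0.09 and -0.77 ± 0.08 in the GFP line. Mrpl12, a large subunit protein also known to bind the mitochondrial RNA polymerase, was at 63.9 ± 2.87 CPM at 5 h against 81.2 ± 3.68 CPM at 0 h in the Nur77 line and at 64.2 ± 2.20 against 85.2 ± 2.83 CPM in the GFP line (SD, n = 4). It was called lower in both, at -0.35 ± 0.06 and -0.41 ± 0.06. Mrps12, the decoding-centre protein, was called lower at -0.41 ± 0.12 and -0.29 ± 0.12, though the libraries of its groups overlapped in both lines. The call in the GFP line ended with no filter on low counts and without replicate 1 or 3 at 0 h or replicate 2 or 4 at 5 h, at adjusted p up to 0.105, while its value under upper quartile scaling was -0.44.

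**Figure D3:**
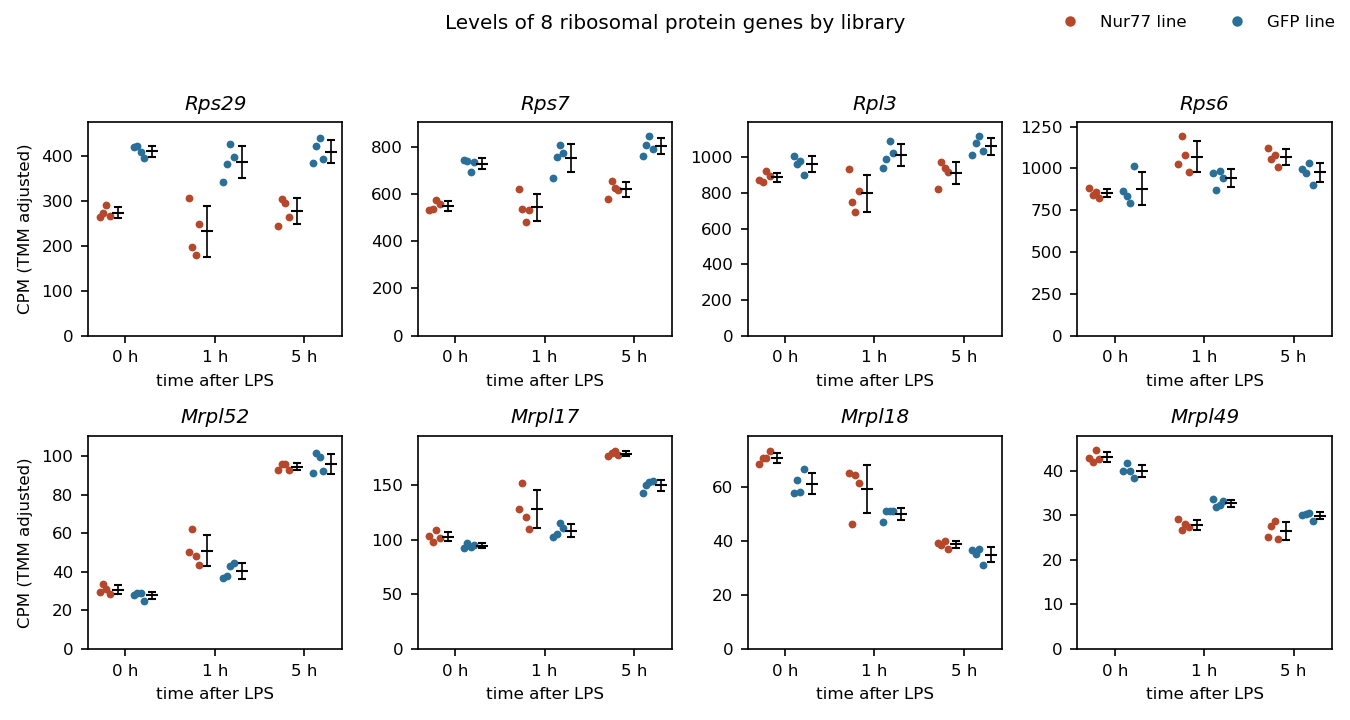
Levels of 8 genes in CPM (vertical, from 0) against hours of LPS, for the Nur77 line (orange) and the GFP line (blue). Points are libraries, and dashes with bars are the mean and SD of 4. Mrpl52 and Mrpl17 rise and Mrpl18 and Mrpl49 fall with time in both lines, and Rps29 and Rps7 lie lower in the Nur77 line than in the GFP line at all 3 times.

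At 1 h of LPS few cytosolic genes were called in the GFP line. Of its 78 mitochondrial genes 13 were called, beside 17.4% of all genes. With edgeR, 0 of its 79 cytosolic genes were called, against 2 at an unadjusted p under 0.05 and 1 called by DESeq2, with 17.4% of all genes called. Of its mitochondrial genes 4 were called higher and 9 lower, against 9.75% and 7.68% of all genes, and 1 and 17 under upper quartile scaling. Mrpl34 was the lowest of these with groups apart, at 14.4, 15.4, 17.1 and 15.5 CPM at 1 h against 23.0, 20.4, 18.8 and 19.0 CPM at 0 h (log2 fold change -0.37 ± 0.08, adjusted p = 0.00211). The 13 were 8 without its replicate 4 at 0 h or its replicate 4 at 1 h. In the Nur77 line 18 cytosolic genes were called higher and 1 lower, and 10 mitochondrial genes higher and 14 lower, with 44.4% of all genes called (22.5% higher, 21.8% lower). The cytosolic calls in that line rest on libraries and on scaling: there were 5 higher and 20 lower under upper quartile scaling, 17 higher and 22 lower without replicate 1, and 11 higher and 0 lower without replicate 2. The mitochondrial calls were 5 higher and 32 lower under upper quartile scaling.

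Rpl23, a large subunit protein that is also known to bind Mdm2, was the cytosolic gene named at 1 h in the Nur77 line, at 885, 1203, 1142 and 854 CPM at 1 h against 758, 707, 721 and 729 CPM at 0 h. The groups were apart (log2 fold change 0.49 ± 0.09, adjusted p = 9.35e-05), but the 4 libraries at 1 h were widely spread. Rplp0 was the cytosolic gene called lower, at 789, 589, 564 and 693 CPM at 1 h against 766, 795, 781 and 754 CPM at 0 h, with overlap (log2 fold change -0.23 ± 0.08, adjusted p = 0.0267). That call ended in a fit of only the groups compared and without replicate 2 or 3 of either time, at adjusted p up to 0.13, and under upper quartile scaling the value was -0.35. Mitochondrial genes called in the same direction in both lines at 1 h were Mrpl17 and Mrpl52, higher, and Mrpl18, Mrpl43, Mrpl44 and Mrpl49, lower. They were 2 of 4 genes called higher and 4 of 9 called lower in the GFP line. In the Nur77 line they were 2 of 10 and 4 of 14. Over all genes at 1 h, 86.1% of the higher and 85.7% of the lower GFP list were shared. The shared parts of the Nur77 lists were 37.2% and 30.2%. Mrpl43 shares 507 bases of exon, 33.4% of its own, with Twnk on the opposite strand. Twnk had log2 fold changes of -0.50 in the Nur77 line and -0.51 in the GFP line at 1 h. Mrpl44 shares 7.66% with Wdfy1 on the opposite strand, which had -0.07 and 0.13.

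Mrpl49, a large subunit protein, was the member called for a response to LPS that differed between the lines. Its level was 42.9, 41.9, 44.6 and 42.5 CPM at 0 h, 29.1, 26.7, 28.1 and 27.3 CPM at 1 h and 25.1, 27.7, 28.7 and 24.6 CPM at 5 h in the Nur77 line. In the GFP line it was 39.9, 41.7, 40.0 and 38.3 CPM at 0 h, 33.6, 31.9, 32.2 and 33.1 CPM at 1 h and 30.05, 30.3, 30.6 and 28.8 CPM at 5 h. Levels were lower after LPS in all libraries of both lines, and those of the Nur77 line were above the GFP line at 0 h and below it at 1 and 5 h. The response differed by -0.34 ± 0.08 log2 units at 1 h (adjusted p = 0.0381) and by -0.28 ± 0.08 at 5 h (adjusted p = 0.0283), each Nur77 line minus GFP line. It was the 1 mitochondrial gene of 78 called in each of these tests, with 1.13% of all genes called at 1 h (0.615% higher, 0.516% lower) and 7.88% at 5 h (2.75% higher, 5.12% lower). The call at 1 h ended with no filter on low counts, with a replicate block and in a fit of only the groups compared, and that at 5 h with no filter and under upper quartile scaling. The largest of these adjusted p was 0.134. Leaving out 1 library ended the call at 1 h for 13 of the 24 libraries, at adjusted p up to 0.0932, and that at 5 h for 7 of them, at adjusted p up to 0.0802. Mrpl49 shares 91 bases of exon, 4.85% of its own, with Syvn1 on the opposite strand, whose response differed by 0.08 log2 units at 1 h and 0.48 at 5 h.

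No cytosolic gene was called for a different response by edgeR: 0 of 79 at 1 h, with 18 at an unadjusted p under 0.05 and 4 called by DESeq2, and 0 of 79 at 5 h, with 2 and 0. The count at 1 h was 7 higher and 11 lower without replicate 1 of the Nur77 line at 1 h, 6 higher and 0 lower without its replicate 4, and 1 higher without replicate 3 of the GFP line at 0 h. Interval widths limit what these tests can show, with a median 95% interval of 0.20 log2 units on each side of the cytosolic value at both times.

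Between the lines, few cytosolic genes were called before LPS in the fit of all 6 groups. At 0 h the Nur77 line had 0 called higher and 3 called lower, with 39.9% of all genes called (20.3% higher, 19.7% lower). No cytosolic gene reached an unadjusted p under 0.05 upward, DESeq2 called 0 higher and 6 lower, and in 69 of 79 genes the 95% interval lay within 0.5 log2 units of 0. The mitochondrial set had 3 called higher and 10 lower, 13 of 78. At 5 h 2 cytosolic genes were called higher and 3 lower, and 10 mitochondrial genes higher and 8 lower, with 46.4% of all genes called (22.0% higher, 24.4% lower). Upper quartile scaling gave 0 cytosolic genes higher and 3 lower, and 6 mitochondrial genes higher and 8 lower, at 5 h. A fit of only the groups compared, with its filter, scaling and spread taken from those libraries alone, called 1 higher and 18 lower at 0 h, and 12 higher and 5 lower at 5 h. Leaving out 1 library gave 3 to 7 cytosolic genes at 0 h, highest without replicate 1 of the Nur77 line at 1 h, and 2 to 8 at 5 h, lowest without replicate 1 of the Nur77 line at 5 h and highest without its replicate 2 at 1 h.

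**Figure D4:**
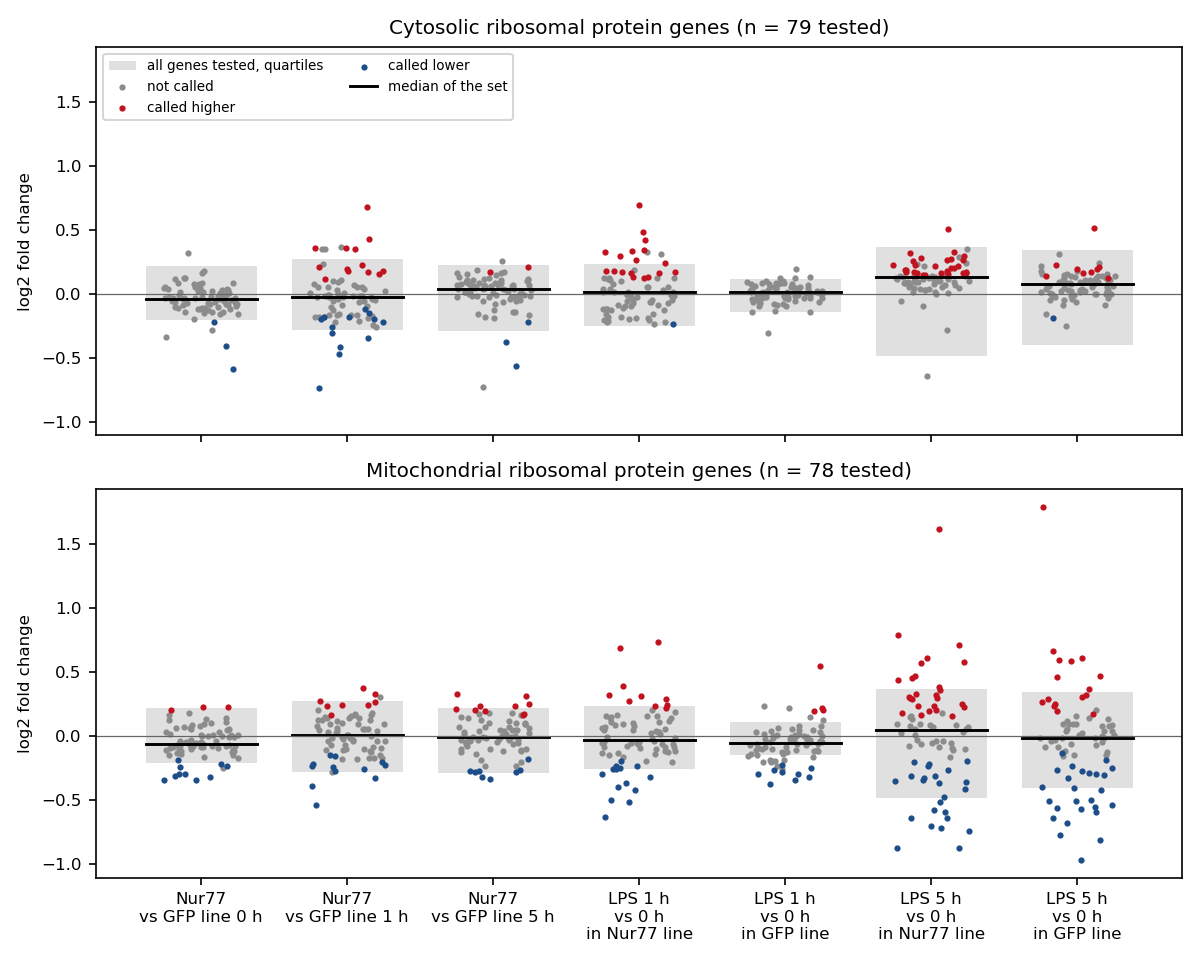
Log2 fold changes of the tested cytosolic (top) and mitochondrial (bottom) ribosomal protein genes in 7 comparisons, 1 point per gene, placed at random sideways. Red points were called higher and blue points lower, black bars mark the median of the set and grey boxes span the quartiles of all tested genes. The medians of both sets lie close to 0 in the comparisons of lines, and the highest point is Mrpl52 at 5 h of LPS in the GFP line, at 1.79.

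Rps29 and Rps7, both small subunit proteins, were the cytosolic genes called lower in the Nur77 line at all 3 times. Rps29, a zinc-binding protein, was at 265, 274, 291 and 266 CPM in the Nur77 line against 420.3, 422, 409.8 and 396 CPM in the GFP line at 0 h. At 1 h it was at 307, 198, 179.7 and 248 CPM in the Nur77 line against 343, 382, 427 and 399 CPM in the GFP line, and at 5 h at 244, 305, 297 and 265 CPM in the Nur77 line against 386, 423, 441 and 393 CPM in the GFP line. The lines did not overlap at any time, and the log2 fold changes were -0.59 ± 0.11 (adjusted p = 1.43e-04), -0.73 ± 0.11 (7.32e-06) and -0.57 ± 0.11 (1.72e-04) at 0, 1 and 5 h. Rps7, a protein needed for early processing of small subunit RNA, was at 531, 536, 575 and 558 CPM in the Nur77 line against 744, 741, 692 and 733 CPM in the GFP line at 0 h, also apart. At 5 h it was at 577, 655, 625 and 618 CPM in the Nur77 line against 761, 807, 843 and 792 CPM in the GFP line, again with no overlap. Its log2 fold changes were -0.40 ± 0.07 (adjusted p = 2.72e-05), -0.47 ± 0.07 (3.03e-06) and -0.37 ± 0.07 (5.71e-05) at the 3 times. Rps29 had 1 annotated -ps copy and Rps7 had 2. Neither gene's response to LPS differed between the lines by the test of that difference: the values were -0.15 ± 0.16 and 0.02 ± 0.16 for Rps29 and -0.06 ± 0.09 and 0.03 ± 0.09 for Rps7 at 1 and 5 h.

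Rps29 and Rps7 were the tested members on chromosome 12 (69157722 to 69159186 and 28630847 to 28635953 in GRCm38), and the 1 other member there, Rpl10l, was not detected. Of the 435 tested genes of that chromosome 285 were called lower in the Nur77 line at 0 h and 14 higher, which is 65.5% lower against 17.9% on other chromosomes. Their median log2 fold change was -0.41 at 0 h, -0.45 at 1 h and -0.45 at 5 h, against 0.03, 0.02 and 0.01 on other chromosomes. At 1 h 64.1% and at 5 h 68.7% of them were called lower. Beside that median of -0.41 at 0 h, Rps29 had -0.59 and Rps7 had -0.40, and the part of the chromosome in their difference was not tested. The labels do not give the chromosome content of the lines.

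Mrpl14 and Mrpl45, both large subunit proteins, were the mitochondrial genes called lower in the Nur77 line at all 3 times. Mrpl45 was at 59.2, 60.9, 60.5 and 58.8 CPM in the Nur77 line against 68.8, 74.8, 77.1 and 75.8 CPM in the GFP line at 0 h, and at 76.4, 72.9, 76.3 and 76.2 CPM in the Nur77 line against 86.9, 95.5, 91.5 and 90.4 CPM in the GFP line at 5 h. The lines were apart at each time, with log2 fold changes of -0.31 ± 0.06, -0.39 ± 0.06 and -0.27 ± 0.06 at 0, 1 and 5 h (adjusted p = 1.00e-04, 4.38e-06 and 3.18e-04). Mrpl45 rose at 5 h of LPS in both lines, at 0.33 ± 0.06 in the Nur77 line and 0.30 ± 0.06 in the GFP line. Mrpl14 had -0.34 ± 0.08, -0.22 ± 0.08 and -0.26 ± 0.08 between the lines at 0, 1 and 5 h, with overlap at 5 h. Mrpl14 shares 106 bases of exon, 11.2% of its own, with Tmem63b on the opposite strand, which had -0.27, -0.44 and -0.57.

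Other mitochondrial genes were called between the lines at 1 or 2 of the 3 times. At 0 h the large subunit genes Mrpl33 and Mrpl3 were higher in the Nur77 line, at 0.23 ± 0.07 (adjusted p = 0.00614) and 0.23 ± 0.07 (adjusted p = 0.00794), and Mrpl19 was lower at -0.34 ± 0.07 (adjusted p = 5.65e-04). Of these Mrpl33 was also called at 5 h, at 0.17 ± 0.07. Mrpl3 was at 88.2, 88.0, 91.0 and 85.6 CPM in the Nur77 line against 78.0, 79.1, 79.3 and 65.3 CPM in the GFP line, where replicate 4 lay below the other 3. At 5 h Mrpl51 and Mrps25 were higher in the Nur77 line, at 0.33 ± 0.08 and 0.32 ± 0.07, and Mrps34 and Mrpl36 lower, at -0.33 ± 0.08 and -0.31 ± 0.12. All of these but Mrpl51 were also called in the same direction at 1 h, Mrps25 at 0.28 ± 0.07 and Mrps34 at -0.27 ± 0.08. The call of Mrpl36 at 5 h ended without replicate 1, 3 or 4 of the GFP line or replicate 1 or 3 of the Nur77 line at 5 h. Mrps25 was at 79.4, 73.5, 73.6 and 80.7 CPM in the Nur77 line against 63.1, 63.9, 59.4 and 59.7 CPM in the GFP line, apart in all libraries. Overlapping genes touch these values. On the opposite strand Mrps25 shares 69.8% of its exon bases with Nr2c2, which had 0.31 between the lines at 5 h, and Mrps34 shares 63.4% with Mapk8ip3, which had -0.36. On its own strand Mrps34 shares 37.0% with Nme3, which had 0.25 at 5 h. Mrpl19 shares 36.0% with Gcfc2 on the opposite strand, which had 0.37 between the lines at 0 h. The strand setting of the counting is not given in the sources used here, so reads of such partners cannot be told apart.

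At 1 h more members were called between the lines, in a comparison that holds the least uniform group. The Nur77 line had 13 cytosolic genes called higher and 13 lower, and 8 mitochondrial genes higher and 12 lower, with 51.2% of all genes called (26.4% higher, 24.8% lower). Upper quartile scaling gave 6 cytosolic genes higher and 20 lower, and 4 mitochondrial genes higher and 19 lower. Leaving out replicate 1 of the Nur77 line at 1 h gave 12 cytosolic genes higher and 28 lower, and leaving out replicate 3 gave 10 higher and 6 lower. Leaving out replicate 4 of the GFP line at 1 h gave 6 mitochondrial genes higher and 7 lower. A fit of only the groups compared gave 5 cytosolic genes higher and 3 lower, and 2 mitochondrial genes higher and 4 lower. The median SD of log2 CPM among libraries of a group was 0.166 for cytosolic genes in the Nur77 line at 1 h, against 0.0413 to 0.0944 in the other 5 groups. Replicate 1 was the high library: 64 of its 79 cytosolic genes lay above the mean of the other 3, by a median of 0.20 log2 units, and its cytosolic share was 4.74% against 3.89% to 4.06%. Replicate 2, which stood apart over all genes, lay at a median of -0.04.

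**Figure D5:**
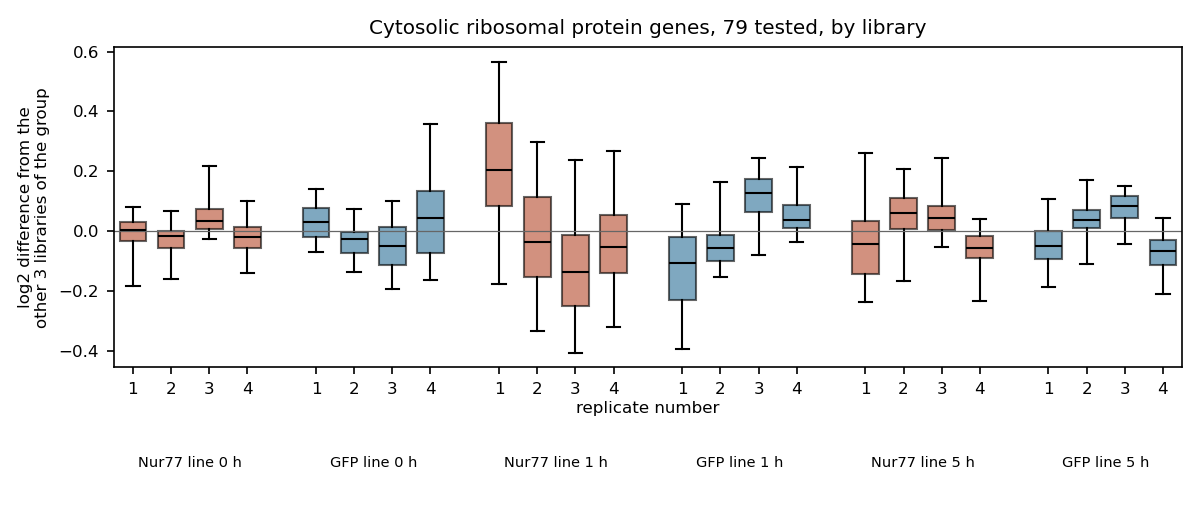
Log2 difference of each library from the mean of the other 3 libraries of its group (vertical, log2 of CPM + 1), over the 79 tested cytosolic genes, by library (horizontal, replicate number within group). Boxes span the quartiles with the median as a line, and whiskers run from the 5th to the 95th percentile. The 3 widest boxes are those of replicates 1, 2 and 3 of the Nur77 line at 1 h, and its replicate 1 has the highest median, 0.20.

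At 1 h Rps24 and Rpl23 were the genes named as higher in the Nur77 line. Rps24, a small subunit protein, was at 1237, 1557, 1408 and 1163 CPM in the Nur77 line against 996, 976, 1118 and 1086 CPM in the GFP line at 1 h (log2 fold change 0.36 ± 0.08, adjusted p = 8.77e-04). At 5 h it was at 1401, 1237, 1256 and 1207 CPM in the Nur77 line against 1106, 1132, 1142 and 1040.1 CPM in the GFP line, also apart, at 0.21 ± 0.08 (adjusted p = 0.0449), a call that ended under upper quartile scaling, with no filter, with a replicate block and when any 1 of 12 libraries was left out, at adjusted p up to 0.164. Rpl23 had 0.43 ± 0.09 at 1 h (adjusted p = 2.52e-04) and 0.17 ± 0.09 at 5 h, not called. Mrps5, a small subunit protein, was higher at 1 h at 0.25 ± 0.08, a call that ended under upper quartile scaling and in a fit of only the groups compared. Mrpl36 was at 27.0, 17.5, 15.1 and 23.5 CPM in the Nur77 line against 29.4, 33.0, 30.5 and 27.3 CPM in the GFP line at 1 h, at -0.54 ± 0.12 (adjusted p = 5.97e-04). Rpl3, a protein next to the site of peptide bond formation, was called lower at 1 h at -0.34 ± 0.07 and at 5 h at -0.22 ± 0.07, and had -0.11 ± 0.07 at 0 h. The call at 5 h ended without replicate 3 of the GFP line or replicate 1 of the Nur77 line at 5 h.

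Paralogues were set beside the common forms per kilobase of transcript. Rps27l, a paralogue of Rps27 known as a target of p53, was at 195 ± 6.03 CPM per kilobase in the Nur77 line and 227 ± 4.57 in the GFP line at 0 h, where Rps27 was at 708 ± 23.5 and 700.1 ± 15.6 (SD, n = 4). Rps27l was called lower in the Nur77 line at 0 h, with 110.4, 112, 109 and 117 CPM against 129, 130.1, 129 and 134 CPM in the GFP line (log2 fold change -0.22 ± 0.06, adjusted p = 0.00284), and at 1 h, at -0.19 ± 0.06, which was not called when the fit held only these groups (adjusted p = 0.0682). At 5 h the difference was -0.12 ± 0.06, not called. At 5 h of LPS it had -0.10 ± 0.06 in the Nur77 line, not called, and -0.19 ± 0.06 in the GFP line (adjusted p = 0.00491), where it was the 1 cytosolic gene called lower. Under upper quartile scaling the value in the GFP line was -0.34. Rps27 had 0.18 ± 0.07 in the Nur77 line and 0.09 ± 0.07 in the GFP line, the second not called. The call of Rps27 in the Nur77 line ended under upper quartile scaling, without replicate 2 or 4 at 0 h (adjusted p up to 0.0713) and without replicate 2 or 3 at 5 h (adjusted p up to 0.0560). Rpl3l, known as the form of Rpl3 in striated muscle, was at 0.362 ± 0.0776 CPM per kilobase in the Nur77 line and 0.422 ± 0.258 in the GFP line at 0 h, where Rpl3 was at 657 ± 18.9 and 711 ± 33.0. Rpl39 had log2 fold changes of 0.07 ± 0.07 and 0.13 ± 0.07 in the Nur77 and the GFP line at 5 h of LPS, and Rpl10 of 0.10 ± 0.12 and 0.15 ± 0.12, and none of these was called.

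Genes of the machinery that builds ribosomes had larger median changes than the ribosomal protein genes. Of 35 genes of ribosome assembly and RNA polymerase I, 33 were called higher and 1 lower at 5 h of LPS in the Nur77 line, and 26 higher and 1 lower in the GFP line, with medians of 0.55 and 0.39 and with 66.7% and 62.6% of all genes called (32.5% and 30.6% higher). Rrs1, an assembly factor of the large subunit, had log2 fold changes of 1.23 ± 0.07 in the Nur77 line and 1.24 ± 0.07 in the GFP line, Eif6, which keeps new large subunits from joining too early, 1.09 ± 0.07 and 1.07 ± 0.07, and Nop58, a core protein of box C/D particles, 0.82 ± 0.09 and 0.65 ± 0.09. The gene called lower in both lines was Ubtf, the upstream binding factor of RNA polymerase I, at -0.74 ± 0.06 and -0.57 ± 0.06. Between the lines the Nur77 line had 5 of the 35 called higher and 2 lower at 0 h, 24 and 0 at 1 h, and 23 and 0 at 5 h, beside 20.3%, 26.4% and 22.0% of all genes called higher. Their LPS response differed in 1 gene at 1 h and in 7 at 5 h, all with a higher value in the Nur77 line, beside 1.13% of all genes at 1 h (0.615% higher, 0.516% lower) and 7.88% at 5 h (2.75% higher, 5.12% lower). At 1 h of LPS the Nur77 line had 24 called higher and 1 lower, and the GFP line 10 and 1, beside 22.5% and 9.75% of all genes called higher. The calls of this list and of the lists that follow were not counted under other scalings or with single libraries left out. Comparisons that hold the Nur77 line at 1 h contain the least uniform group.

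The shares of all genes called at 5 h of LPS were 32.5% higher and 34.2% lower in the Nur77 line, and 30.6% higher and 32.0% lower in the GFP line. Of 15 translation factors of the cytosol and related genes with TOP messages, 11 were called higher and 1 lower at 5 h of LPS in the Nur77 line and 8 and 1 in the GFP line, with medians of 0.24 and 0.16. Upper quartile scaling moved values at 5 h by a median of -0.15 log2 units over all genes in both lines. The calls of this list were not counted under that scaling. Eef1a1, which carries aminoacyl-tRNA to the ribosome, had 0.21 ± 0.05 and 0.21 ± 0.05, and Npm1, a nucleolar chaperone, 0.56 ± 0.10 and 0.25 ± 0.10. Of 25 genes of mitochondrial translation and mitochondrial ribosome assembly the Nur77 line had 11 called higher and 4 lower and the GFP line 8 and 5, which is 15 and 13 of 25 beside the 66.7% and 62.6% of all genes called. Fastkd2, which binds the large ribosomal RNA of mitochondria, had 0.56 ± 0.06 and 0.62 ± 0.06. Rbfa, a maturation factor of the small subunit, had -0.90 ± 0.10 and -0.98 ± 0.10, and Mrm2, a methyltransferase of mitochondrial ribosomal RNA, -0.79 ± 0.15 and -0.93 ± 0.14. Of 10 ribosomal protein genes outside the symbol rule the Nur77 line had 3 called higher and 0 lower and the GFP line 2 and 0, among them Rpl22l1, a paralogue of Rpl22, at 0.35 ± 0.15 and 0.51 ± 0.15.

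Of 21 regulators of ribosome synthesis 9 were called higher and 7 lower at 5 h of LPS in the Nur77 line and 10 and 9 in the GFP line, with 66.7% and 62.6% of all genes called. Myc, a known activator of ribosomal genes, had log2 fold changes of 5.33 ± 0.14 in the Nur77 line and 5.84 ± 0.14 in the GFP line. Larp1, which binds TOP messages, had 0.67 ± 0.07 and 0.46 ± 0.07. Ppargc1b, a coactivator of nuclear genes for mitochondrial proteins, had -1.35 ± 0.10 and -1.56 ± 0.10, while Tfam, which packs mitochondrial DNA, had 0.35 ± 0.07 and 0.28 ± 0.07. All of these were called in both lines. The response at 5 h differed between the lines in 3 of the 21, with 7.88% of all genes called, named after their values were seen: Ddit4 and Sesn2, stress-induced inhibitors of mTOR signalling, by 1.29 ± 0.14 (adjusted p = 3.92e-07) and 0.55 ± 0.13 (0.00836), and Mxi1, an antagonist of Myc, by -0.96 ± 0.08 (8.59e-09), each Nur77 line minus GFP line.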

How the data were processed

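Expression was measured by messenger RNA sequencing in 24 libraries of 6 groups. The authors deposited a table of estimated counts for 42361 transcripts, given in steps of 0.5. CASAVA 1.8.2, HISAT2 2.1.0 and the mm10 genome are named in the submitters' processing notes; the counting tool and its strand setting were not given in the sources used here. Transcripts were named from RefSeq (42203), then GENCODE (65), and 93, with 0.496% of the counts, kept their own ID. Transcripts of a gene had nearly equal counts (0.992 as the median ratio of second to first over 5011 genes), so the transcript with the highest mean stood for its gene. Columns were rounded and 25160 genes were filtered by edgeR's filterByExpr, which kept 12198.

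Fold changes, SE and p-values came from edgeR 4.0.16 quasi-likelihood tests (R 4.3.3, limma 3.58.1) of 1 model of the 6 group means with TMM scaling and 18 residual degrees of freedom, two-sided, adjusted by Benjamini-Hochberg over all tested genes; called means an adjusted p under 0.05. CPM used the same scaling, with factors of 0.896 to 1.14. The fit was tested on simulated data. Depth of 8134143 to 29275847 and a biological coefficient of variation of 0.0979 set the precision. Alternatives were DESeq2 1.42.0, DESeq2 size factors, upper quartile scaling, TMM without the members or without the ribosomal RNA transcript, other filters, the mean over transcripts, the groups compared alone, a replicate block and leaving out each library. 

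Within each set the genes named were the largest called changes with groups apart, at least 10 CPM in the higher group (2 in each direction between lines, 1 for LPS and the interactions), and genes of known roles or paralogues. The members and lists were chosen with earlier results of these data known. Overlaps and neighbours came from GENCODE on GRCm38, and sequences from RefSeq on GRCm38.p6. Promoters without an entry in the table were not analysed here.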

Additional observations from a re-analysis of the deposited data

Results flagged for a closer look

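The response of Mrpl49 to LPS differed between the lines by the test of that difference, by -0.34 log2 units at 1 h and -0.28 at 5 h, Nur77 line minus GFP line. Its calls depend on the filter and on single libraries, as given with its values.

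In 5 of 123 groups of 4 libraries, over the named genes and the summed shares, 1 library lay far from the other 3 by Dixon's criterion, which chance passes in about 1 in 20 groups. Mrpl3 was at 65.3 CPM in replicate 4 of the GFP line at 0 h, against 78.0 to 79.3 CPM in the others. Mrpl12 was at 60.9 CPM in replicate 1 of the GFP line at 5 h, against 64.9 to 65.7 CPM. Mrps12 was at 7.58 CPM in replicate 3 of the Nur77 line at 5 h, against 5.74 to 6.05 CPM. The cytosolic share was 4.68% in replicate 3 of the Nur77 line at 0 h, against 4.50% to 4.53%. The mitochondrial share was 0.347% in replicate 1 of the Nur77 line at 1 h, against 0.307% to 0.312%.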

How the results depend on the processing

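Counts of called genes are given higher and lower together, and no cause was tested unless it is named. Relative to the main counts of cytosolic genes between lines (3 at 0 h, 26 at 1 h and 5 at 5 h), DESeq2's own test gave 6 at 0 h and 9 at 5 h, upper quartile scaling 5 and 3, and scaling without the members or without the ribosomal RNA transcript 6 at 0 h each. With no filter the count at 5 h was 3, where more genes share the adjustment. A fit of only the groups compared gave 19, 8 and 17 cytosolic genes, and 6 mitochondrial genes at 1 h and 28 at 5 h (20 and 18 in the main fit). For LPS it gave 8 cytosolic and 15 mitochondrial genes at 1 h in the Nur77 line (main 19 and 24), 2 cytosolic genes at 1 h in the GFP line (main 0), and 47 and 24 at 5 h in the Nur77 and GFP lines (main 28 and 10). That fit has fewer samples and takes the spread from them alone, while the main fit shares 1 estimate over all groups. The median SD of cytosolic log2 CPM was 0.166 in the Nur77 line at 1 h and 0.0413 to 0.0944 in the other groups. What moved these counts, some up and some down, was not tested. Upper quartile scaling gave 37 mitochondrial genes at 1 h and 5 cytosolic genes at 5 h in the Nur77 line, and 1 cytosolic gene at 1 h in the GFP line, as did DESeq2. For the difference of LPS responses DESeq2 gave 4 cytosolic and 2 mitochondrial genes at 1 h. The 1 mitochondrial gene at 1 h, Mrpl49, was 0 with no filter and with only the groups compared, and at 5 h the count was 0 with no filter, 0 under upper quartile scaling and 7 with only the groups compared. With the mean over transcripts the cytosolic share in the Nur77 line at 0 h was 4.65%.

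Libraries of the same replicate number were not more alike than others by the median correlation of their deviations. It was -0.015 for the same number (-0.295 to 0.173 over 60 pairs). For other numbers it was -6.08e-04 (-0.322 to 0.333 over 180 pairs). Whether libraries of the same number shared a culture or batch cannot be told from these values. With a replicate block 3 cytosolic genes differed between lines at 5 h and 0 mitochondrial genes had a different response at 1 h. The other counts were within 1.5 times of the main count under the block.

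Leaving out 1 library gave, for cytosolic genes between lines, 3 to 7 at 0 h, 16 to 40 at 1 h and 2 to 8 at 5 h, and 13 to 30 mitochondrial genes at 1 h. For LPS it gave 11 to 39 cytosolic genes at 1 h in the Nur77 line, 0 to 2 cytosolic and 8 to 15 mitochondrial genes at 1 h in the GFP line, and 5 to 12 cytosolic genes at 5 h in the GFP line. For the difference of responses it gave 0 to 18 cytosolic and 0 to 6 mitochondrial genes at 1 h and 0 to 3 mitochondrial genes at 5 h. Of 62 pairs of a named gene and a comparison, over all settings 587 values kept their call and 33 lost it, over single libraries left out 1409 kept it and 79 lost it, and 0 changed sign. All 62 pairs were taken because they were called in the main fit. The library left out was often of a group not compared. Both points favour kept calls in this tally.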
